A study of Homo sapiens with 9 samples.

Results

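The genes described here are 10 subunits of the integrin family, measured by RNA-seq in Huh7 cells, an established human hepatocellular carcinoma line. They were taken by gene number, as the rows for ITGA1 (gene number 3672), ITGA2 (3673), ITGA3 (3675), ITGA5 (3678), ITGA6 (3655), ITGAV (3685), ITGB1 (3688), ITGB4 (3691), ITGB5 (3693) and ITGB8 (3696), and all 10 were found among the 20575 genes of the files. The choice of these 10 was made with earlier results of these data known. The 9 samples fall into 3 groups of 3: cells transfected with a control siRNA (siControl), with siRNA against the Hippo pathway kinase LATS1 (siLATS1), or with siRNA against its paralog LATS2 (siLATS2). All cells received siRNA with the RNAiMAX reagent and gave RNA 48 h later, and the comparisons ask whether the loss of either kinase changed integrin mRNA. The labels name the siRNA alone, whereas the study's methods also speak of Srf (sorafenib) treatment and of poly-A+ RNA where the labels describe Ribo-Zero total RNA, so the groups are named here by siRNA. All samples come from 1 cell line, and the methods call the replicates biological triplicates.

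Integrins are transmembrane receptors made of 1 alpha and 1 beta subunit, which bind the extracellular matrix outside the cell and, through talin, kindlin and other adaptors, the actin cytoskeleton inside it. ITGB1 is the shared beta subunit that pairs with most of the alpha subunits here: with ITGA1 and ITGA2 it binds collagen, with ITGA3 and ITGA6 laminin, and with ITGA5 fibronectin. ITGAV pairs with ITGB1, ITGB5 or ITGB8 to bind ligands that carry an RGD motif, such as vitronectin and latent TGF-beta, and ITGB4 pairs with ITGA6 in hemidesmosomes. Hepatocytes are known for ITGA1 and ITGA5, and liver carcinoma cells for laminin and RGD receptors as well. LATS1 and LATS2 phosphorylate the coactivators YAP and TAZ, which act through TEAD transcription factors, and adhesion through integrins is in turn a known input to YAP.

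Upstream sequences are shown for 4 members, the pair that passed the threshold in siLATS1 (ITGA2 and ITGB8) and the pair that holds a TEAD core motif (ITGA5 and ITGB1). They are RefSeq sequences of GRCh38.p14, read 5′ to 3′ on the gene's strand, from 250 bases before the annotated start to the last base that lies in no annotated transcript of an integrin gene. Capitals mark GGAATG, the TEAD core, which was searched on both strands (GGAATG or CATTCC). ITGA2 is shown from chr5:52989102-52989351 (plus strand), ITGA5 from chr12:54419267-54419516 (minus strand), ITGB1 from chr10:32958326-32958480 (minus strand) and ITGB8 from chr7:20330650-20330701 (plus strand).
ITGA2: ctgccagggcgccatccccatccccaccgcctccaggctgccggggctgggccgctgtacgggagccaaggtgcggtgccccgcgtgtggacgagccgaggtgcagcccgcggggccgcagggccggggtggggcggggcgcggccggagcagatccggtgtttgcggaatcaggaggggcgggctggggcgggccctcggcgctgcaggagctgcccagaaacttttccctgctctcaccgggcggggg
ITGA5: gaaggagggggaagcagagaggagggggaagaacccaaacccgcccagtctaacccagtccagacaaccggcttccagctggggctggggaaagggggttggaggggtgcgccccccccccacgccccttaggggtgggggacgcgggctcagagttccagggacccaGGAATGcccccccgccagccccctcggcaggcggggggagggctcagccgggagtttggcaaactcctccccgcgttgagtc
ITGB1: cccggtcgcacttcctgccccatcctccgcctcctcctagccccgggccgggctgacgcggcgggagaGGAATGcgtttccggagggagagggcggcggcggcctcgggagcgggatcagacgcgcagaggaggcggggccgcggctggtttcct
ITGB8: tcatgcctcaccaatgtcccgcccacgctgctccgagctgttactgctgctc

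The motif began at position -82 of ITGA5 and at -182 of ITGB1, with the start site counted as 0. Of the 13 promoter windows (250 bases before to 50 after a start) that RefSeq gave for 8 of the members, 2 (15.4%) held GGAATG, against 4928 of 35116 windows of all genes (14%). The AP-1 motif TGANTCA was in 1 of the 13 windows (7.69%), that of ITGA5, against 7.71% of all windows. A match of letters is a description and not a bound site. ITGA3 and ITGB4 had no entry.

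Sequencing gave 23547579 to 32193229 reads counted over genes in a sample, and the tests covered the 12901 genes that reached 1 CPM, the authors' measure of a gene's reads relative to all counted reads of the sample, in 3 samples or more. siControl replicate 1 stood apart: its Pearson's r with the other siControl samples over the tested genes was 0.859 and 0.866, while the lowest r between other replicates of 1 group was 0.959. Results that rest on it are therefore given with and without it. LATS1, the targeted gene, had 27.1, 20.1 and 15.6 TMM-scaled CPM (scaled between samples by the trimmed mean of M values) in siLATS1, against 110, 55.2 and 62.9 in siControl (log2 fold change -1.78, standard error 0.31, adjusted p = 0.13 in limma), whereas LATS2 was not analysed here, so the knockdown in siLATS2 was not checked and the values of that group are those of the samples labelled siLATS2. The hepatocyte markers ALB (2962 to 6210 CPM), AFP (4379 to 10032 CPM) and HNF4A (171 to 308 CPM) were high in every sample. The summed level of the 8 hepatocyte markers ran from 13418 to 22344 CPM in siControl, 13912 to 18346 in siLATS1 and 11895 to 16572 in siLATS2, and of these genes SERPINA1 and TTR passed the threshold used below as higher and APOB as lower in siLATS1 against siControl (0.72, 0.77 and -0.70 on the log2 scale). With all samples 2.91% of all tested genes passed. None of the 3 passed without siControl replicate 1 (0.52, 0.39 and -0.50), where 5.67% of all tested genes did. With the GC correction described below all 3 passed the unadjusted threshold (0.61, 0.70 and -0.63), as 3.25% of genes did. Their adjusted p in that fit was 0.044 for SERPINA1, 0.12 for TTR and 0.039 for APOB (limma). The adjusted threshold was passed there by 1.39% of genes. In siLATS1 against siLATS2, where 1.86% of all tested genes passed, SERPINA1 was higher, at 0.63 with and without siControl replicate 1. The fibroblast and stellate markers summed to 115 to 271 CPM, of which LUM gave 111 to 270 while ACTA2 and DCN were at most 0.0684 and 0.186 CPM. The 4 endothelial markers summed to at most 2.77 CPM (PECAM1 passed as lower in siLATS1, VWF, CDH5 and KDR were at most 0.124 CPM), and the 4 leukocyte markers to at most 15 CPM (CD14 up to 12.1, ITGB2 at most 0.0357), of which CD14 did not pass in siLATS1 against siControl with all samples and passed as lower without siControl replicate 1. The part of other cell types in the integrin values was not tested. In these bulk samples fewer cells of a type and less RNA per cell cannot be told apart.

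Of the 10 subunits, Huh7 cells held most mRNA of the shared subunit ITGB1, followed by ITGAV and then by ITGB5 and ITGA6. Compared as CPM per kb of the MANE Select transcript, so that long and short transcripts can be set side by side, ITGB1 had 135 ± 46.2 (SD, n = 3) in siControl and made up 42.8% of the summed level of the 10 subunits. ITGAV followed with 74.2 ± 25.3 and ITGB5 with 36 ± 11.9 CPM per kb, which together are the subunits of a vitronectin receptor. ITGA6 had 30.8 ± 9.55, ITGA2 12.2 ± 2.5, ITGA5 11.6 ± 6.46 and ITGA1 10.2 ± 4.26 CPM per kb. In siControl the ranges of ITGB5 and ITGA6 overlapped, as did those of ITGA2, ITGA5 and ITGA1, so their order is not fixed, whereas ITGB1 lay above ITGAV and ITGAV above ITGB5 in every sample of each group. ITGA3, ITGB8 and ITGB4 came last with 0.281 ± 0.206, 0.124 ± 0.0425 and 0.114 ± 0.113 CPM per kb, and none of these 3 made up more than 0.23% of the sum in any sample. The 6 alpha subunits together gave 108 to 178 CPM per kb and the 4 beta subunits 149 to 211, so that the beta sum was 1.17 to 1.37 times the alpha sum in every sample.

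The order was similar after either knockdown, with a change of place among the middle genes. In siLATS1, ITGB1 had 126 ± 21.2, ITGAV 64.2 ± 14 and ITGB5 40.7 ± 5.77 CPM per kb (SD, n = 3). ITGA5 stood at 20.2 ± 4.74 CPM per kb and lay above ITGA1 (9.23 ± 1.71) and ITGA2 (6.93 ± 1.98) in every siLATS1 sample, which it did not in siControl. In siLATS2 ITGA5 also lay above both, with 17.2 ± 2.63 against 9.66 ± 2.79 for ITGA2 and 9.47 ± 1.18 CPM per kb for ITGA1. This rests on siControl replicate 1, where ITGA5 had 4.19 CPM per kb, while in siControl replicates 2 and 3 it had 15.9 and 14.8 and ITGA2 9.83 and 11.9.

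After siLATS1, 2 of the 10 integrin subunits passed the threshold of the study's methods, an unadjusted p under 0.05 and a change of 0.58 or more, up or down, on the log2 scale: ITGB8 rose and ITGA2 fell. Across all tested genes 2.91% passed this threshold (376 of 12901). No member passed with the p adjusted by the Benjamini-Hochberg method over all tested genes (0.101% of all genes, adjusted p of the members from 0.13 to 1 in limma). The fold changes are differences of log2(TMM-scaled CPM + 1), so the change of the low genes ITGA3, ITGB4 and ITGB8 is understated. Without siControl replicate 1 the same members passed, and 5.67% of all genes. The median over the 10 members was -0.02, beside 0.02 over all tested genes, and 5 members lay above and 5 below 0. ITGB8 and ITGA2 were also the members whose siLATS1 and siControl samples did not overlap, as for 8.48% of all tested genes.

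Among the subunits that bind RGD ligands, ITGB8 rose after siLATS1. ITGB8, the partner of ITGAV in a receptor that activates latent TGF-beta, had 4.41, 2.75 and 3.13 CPM in siLATS1 and 1.41, 0.683 and 1.25 CPM in siControl. All siLATS1 samples were above all siControl samples, and the ratio of the means was 3.08. These are low levels, counted from 77 to 129 reads in siLATS1 and 17 to 34 reads in siControl. In the fit it changed by 1.07 on the log2 scale (standard error 0.19, 95% interval 0.63 to 1.5, adjusted p = 0.13 in limma) and by 1.16 without siControl replicate 1 (adjusted p = 0.066). It lay between 0.88 and 1.17 with any single sample left out, and it passed in each of these fits.

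ITGA5, the alpha subunit of the fibronectin receptor, had 66.2, 85.1 and 107 CPM in siLATS1 and 17.8, 67.4 and 63 CPM in siControl. The groups overlapped, since siLATS1 replicate 1 lay just under siControl replicate 2. Its log2 fold change of 0.97 (standard error 0.46, 95% interval -0.09 to 2.04, adjusted p = 0.97 in limma) missed the threshold. The value depends on siControl replicate 1: without that sample it was 0.35 and did not pass, and without siControl replicate 2 or 3 it passed the unadjusted threshold, at 1.25 and 1.24. ITGAV, the alpha subunit of the RGD receptors, had 495, 522 and 339 CPM in siLATS1 and 718, 370 and 479 in siControl, a log2 fold change of -0.18 (95% interval -0.79 to 0.43). Its samples overlapped widely. ITGB5, which joins ITGAV in a vitronectin receptor, had 155, 182 and 206 CPM in siLATS1 and 99.2, 189 and 191 in siControl, a log2 fold change of 0.23 (95% interval -0.37 to 0.82). Neither of these genes passed, and without siControl replicate 1 their values were 0.06 and -0.10.

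Of the collagen receptors, ITGA2 fell after siLATS1 and ITGA1 did not pass. ITGA2, the alpha subunit of a receptor for fibrillar collagen, had 56.3, 68.9 and 38 CPM in siLATS1 and 116, 77.1 and 93.2 CPM in siControl. All siLATS1 samples were below all siControl samples, and the mean of siLATS1 was 0.57 of that of siControl. On the log2 scale the change was -0.82 (standard error 0.28, 95% interval -1.47 to -0.18, adjusted p = 0.65 in limma) and -0.69 without siControl replicate 1, where it passed as well (adjusted p = 0.38). The call is lost without siLATS1 replicate 3, the sample with the lowest ITGA2, where the log2 fold change was -0.58. ITGA1, whose receptor prefers basement membrane collagen, had 118, 98.7 and 80.9 CPM in siLATS1 and 160, 71 and 96.5 in siControl. Its groups overlapped, and its log2 fold change was -0.07 (95% interval -0.73 to 0.58) and turned to 0.23 without siControl replicate 1. About 4.65% of its MANE exons overlap PELO on the same strand, so some of its reads may belong to that gene. ITGA1 and ITGA2 are neighbours on chromosome 5 of GRCh37, from 52083750 to 52255039 and from 52285170 to 52390609.

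None of the laminin receptor subunits passed after siLATS1. ITGA6, the abundant laminin-binding alpha subunit of these cells, had 176, 145 and 129 CPM in siLATS1 and 242, 139 and 155 in siControl, a log2 fold change of -0.22 (95% interval -0.75 to 0.31). ITGA3 had 1.54, 1.43 and 2.89 CPM in siLATS1 and 0.22, 2.09 and 1.81 in siControl, a log2 fold change of 0.39 (95% interval -0.44 to 1.23) that was -0.04 without siControl replicate 1. ITGB4, the hemidesmosome subunit, had 0.342, 0.179 and 1.61 CPM in siLATS1 and 0, 0.683 and 1.33 in siControl, a log2 fold change of 0.02 (95% interval -0.86 to 0.91). In all of them the groups overlapped. ITGA3 and ITGB4 were counted from at most 73 and 40 reads, so only large changes were detectable, and the 0 reads of ITGB4 in siControl replicate 1 allow up to 3 reads or 0.132 CPM, for counting error alone.

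The shared subunit ITGB1 did not pass. It had 515, 519 and 379 CPM in siLATS1 and 703, 399 and 409 in siControl, so its groups overlapped and 2 of the siLATS1 samples lay between siControl samples. The log2 fold change was -0.06 (standard error 0.24, 95% interval -0.62 to 0.5, adjusted p = 0.98 in limma), and it was 0.19 without siControl replicate 1.

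**Figure D1:**
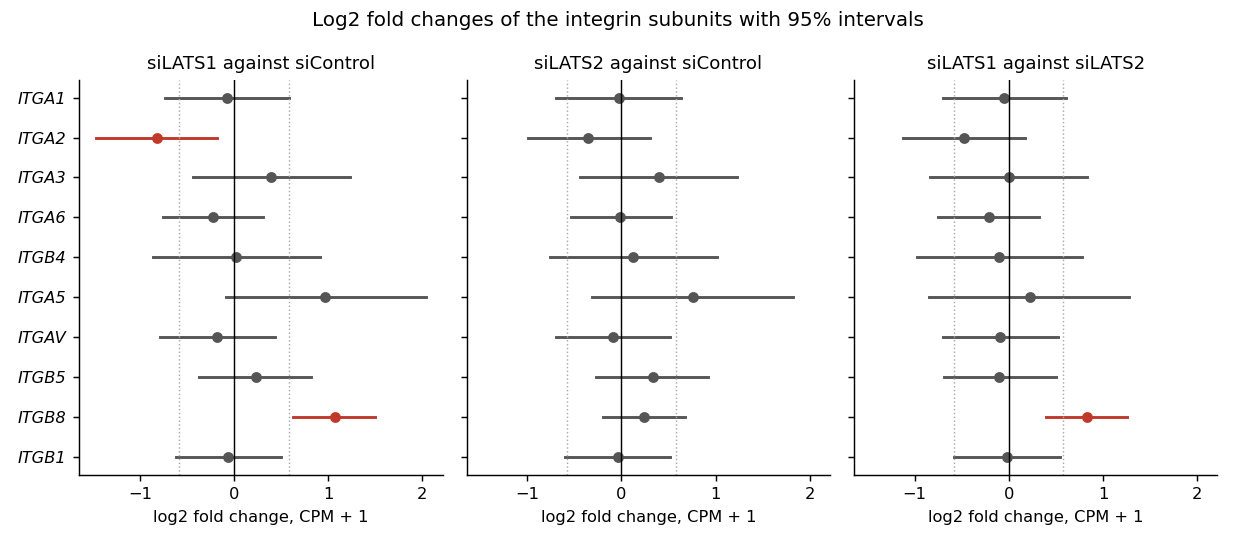
Log2 fold changes of the 10 subunits in the 3 comparisons, as points with 95% intervals from limma; the dotted lines are at -0.58 and 0.58 and red marks the genes past the threshold. ITGB8 and ITGA2 pass in siLATS1 against siControl, 0 members in siLATS2 against siControl, and ITGB8 in siLATS1 against siLATS2.

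After siLATS2 no integrin subunit passed, and 0.271% of all tested genes did (35 of 12901). This comparison uses the same siControl samples as the one with siLATS1. The log2 fold changes of the members ran from -0.35 for ITGA2 to 0.76 for ITGA5, with a median of 0.06 beside 0.03 for all tested genes, and the adjusted p was 0.95 or more for each (limma). ITGA2 had 60.5, 101 and 66 CPM in siLATS2, which overlapped with siControl (95% interval of the log2 fold change -0.99 to 0.30). ITGA5 had 75.5, 60.8 and 82.8 CPM, against 17.8, 67.4 and 63 in siControl, with an interval of -0.31 to 1.82, and its log2 fold change was 0.14 without siControl replicate 1. ITGB8 had 1.34, 1.68 and 1.4 CPM, with siControl replicate 1 inside that range, and a log2 fold change of 0.24 (95% interval -0.20 to 0.68). ITGB1 had 446, 550 and 431 CPM and ITGAV 421, 551 and 453 CPM, with log2 fold changes of -0.04 (95% interval -0.60 to 0.52) and -0.09 (-0.70 to 0.52). The samples of siLATS2 and siControl overlapped for all 10 members, while 3.51% of all tested genes did not overlap. No member had an unadjusted p under 0.05 here in limma, edgeR or DESeq2 on all 9 samples, before the GC correction described below. Without siControl replicate 1 the count of members was again 0, against 0.536% of all genes.

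Compared directly, siLATS1 and siLATS2 differed in ITGB8, 1 of the 10 members, against 1.86% of all tested genes (240 of 12901). ITGB8 was 2.33 times as high in siLATS1 by the ratio of means, and each siLATS1 sample (2.75 to 4.41 CPM) lay above each siLATS2 sample (1.34 to 1.68 CPM), as for 12.4% of all tested genes in either direction. The difference was 0.83 on the log2 scale (standard error 0.19, 95% interval 0.39 to 1.26, adjusted p = 0.41 in limma). The siControl samples enter it only through the shared scaling, filter and estimate of the spread, and it was 0.83 without siControl replicate 1 as well, where 2.38% of all genes passed. ITGA2 had a log2 fold change of -0.48 (95% interval -1.12 to 0.17), and siLATS2 replicate 2, at 101 CPM, was its highest sample outside siControl. For the other 8 members the values ran from -0.21 for ITGA6 to 0.22 for ITGA5, and all of their groups overlapped.

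siControl replicate 1 was the highest of the 9 samples for 5 members and the lowest for 4, and it divided the family by base composition. ITGA1, ITGA2, ITGA6, ITGAV and ITGB1, the 5 at their highest there, have MANE transcripts with a GC content of 38.3% to 42.5%, and ITGA3, ITGA5, ITGB4 and ITGB5, the 4 at their lowest, of 54.6% to 63.6%. ITGA5 had 17.8 CPM there against a mean of 65.2 in the other siControl samples, a difference of -1.82 on the log2(CPM + 1) scale. The low genes ITGA3 and ITGB4 had 0.22 against 1.95 CPM and 0 against 1.01 CPM. ITGB1, by contrast, had 703 CPM there against a mean of 404. ITGB8, with 38.7% GC, lay within the range of the other 8 samples. Across all tested genes siControl replicate 1 was the highest sample for 41.8% and the lowest for 39.6%. Over the 11693 tested genes with a GC value (90.6%), Pearson's r of GC content with the deviation of siControl replicate 1 from the mean of the other siControl samples was -0.882. This r is a description across genes of 1 set of libraries.

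**Figure D2:**
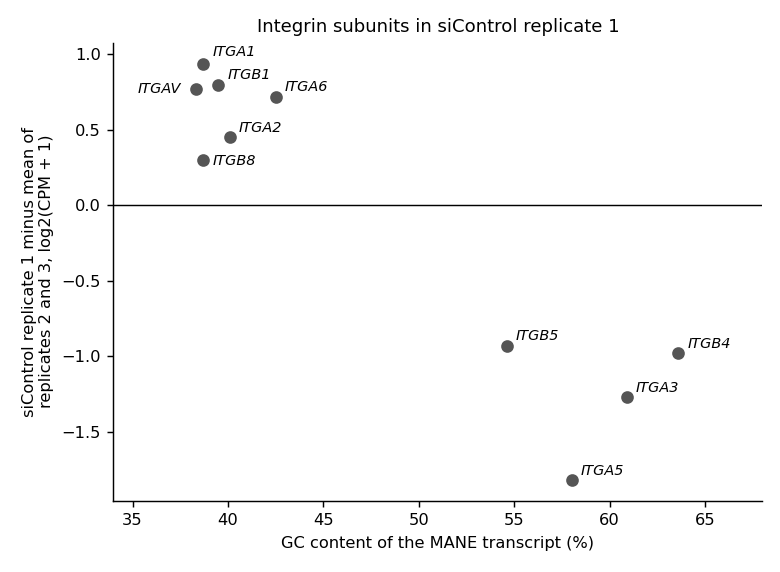
GC content of each subunit's MANE transcript (x axis, percent) against the deviation of siControl replicate 1 from the mean of siControl replicates 2 and 3 (y axis, log2(CPM + 1)), 1 point a gene. The 6 genes with 42.5% GC or less lie above 0 and the 4 with 54.6% or more lie below it.

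With the dependence on GC removed within each sample, an alternative chosen after seeing the data, the siControl replicates of all members but ITGB4 and ITGB8 lay closer together and 3 members passed in siLATS1 against siControl. In this fit a smooth (loess) curve of each gene's deviation on GC content was subtracted in each sample before limma, and 3.25% of the 11693 genes passed the unadjusted threshold (380) and 1.39% the adjusted one (162). The SD of log2 ITGA5 over the siControl samples went from 1.05 to 0.22 and that of ITGB1 from 0.46 to 0.05. That of ITGB4 went from 0.61 to 0.81. ITGA5 then had 6.31, 6.40 and 6.36 in siLATS1, 6.05, 6.06 and 6.06 in siLATS2 and 5.37, 5.77 and 5.72 in siControl on the corrected log2 scale, so that siLATS1 lay above siLATS2 and siLATS2 above siControl in every sample. Its log2 fold change in siLATS1 against siControl was 0.74 (standard error 0.10, adjusted p = 0.012 in limma) and 0.62 with siControl replicate 1 also left out (adjusted p = 0.0015). ITGB8 had 1.21 (adjusted p = 0.024) and ITGA2 -0.70 (adjusted p = 0.061, and -0.80 with adjusted p = 0.017 when siControl replicate 1 was also left out). The other 7 members had values from -0.32 for ITGB4 to 0.10 for ITGA3 and did not pass. In this fit siLATS1 and siControl also did not overlap for ITGB8 (higher) and ITGA2 (lower). Nor did siLATS1 and siLATS2 for ITGB8 (higher) and ITGA6 (lower), or siLATS2 and siControl for ITGB1 (higher). The share of all genes without overlap was not computed for the corrected values, so whether these separations are unusual cannot be said. Before the correction that share was 8.48% for siLATS1 against siControl, 3.51% for siLATS2 against siControl and 12.4% for siLATS1 against siLATS2.

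In the corrected fit of siLATS2 against siControl no member passed, and 0.265% of genes did. ITGA5 had 0.44 (standard error 0.10, adjusted p = 0.94 in limma) and 0.32 with siControl replicate 1 also left out. Its unadjusted p was under 0.05 in both of these fits, and its fold change was below the one that the threshold asks for. Of siLATS1 against siLATS2, ITGB8 passed the unadjusted threshold at 0.80 (adjusted p = 0.12, and 0.03 with siControl replicate 1 also left out), as did 2.51% of genes, and 0 members passed the adjusted one, as 0.718% of genes did. ITGA5 had 0.30 in this comparison (adjusted p = 0.21 in limma). ITGB1 lay between -0.04 and 0.11 in the 3 comparisons. The correction removes any difference between groups that follows GC content, whatever its source, and the group differences did follow it. Over the 11693 genes Pearson's r of GC content with the log2 difference was 0.539 for siLATS1 against siControl, 0.778 for siLATS2 against siControl and -0.188 for siLATS1 against siLATS2. Without siControl replicate 1 the first of these was -0.549 and that of siLATS2 against siControl -0.667, so their sign rests on that sample, and a relation with GC content remained among the other 8 samples. These r describe genes, which are not replicates, and an effect of siRNA along GC content and one of the libraries cannot be told apart here.

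**Figure D3:**
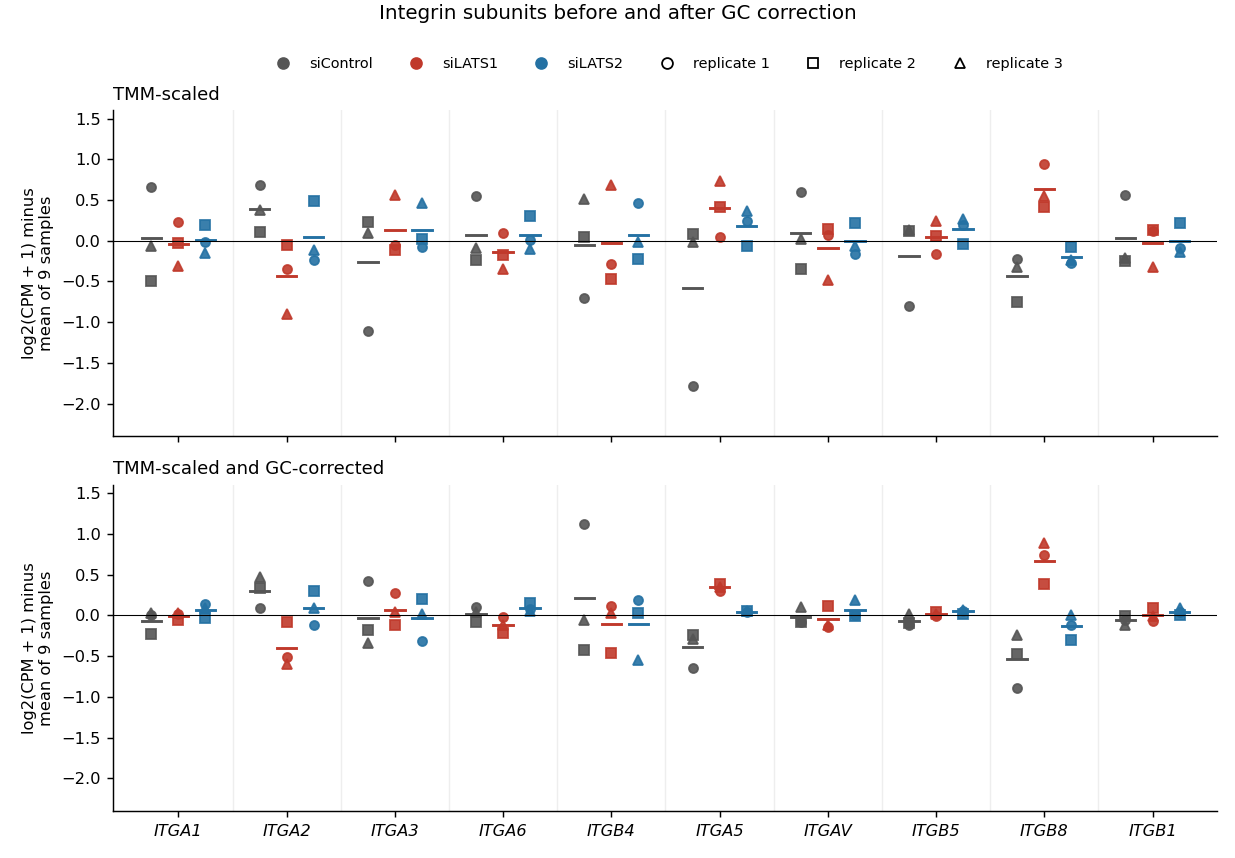
Log2(CPM + 1) of each subunit minus its mean over the 9 samples, TMM-scaled (top) and with the dependence on GC content also removed in each sample (bottom), with points for samples, shapes for replicate numbers and lines for group means. In the top panel siControl replicate 1 (grey circle) lies far from the other siControl samples for ITGA5, and in the bottom panel all siLATS1 points of ITGA5 and ITGB8 lie above all siControl points.

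Ratios within a sample compared a beta subunit with its alpha partner (ITGB8 or ITGB5 to ITGAV) or alternative partners (ITGA6 to ITGA3, ITGB4 to ITGB1). They are log2 ratios of TMM-scaled CPM + 1. Those with the low genes ITGA3, ITGB4 and ITGB8 therefore understate how far the subunits lie apart. None of the 12 comparisons could pass, since 3 samples against 3 cannot give an exact two-sided permutation p below 0.1. The log2 ratio of ITGB8 to ITGAV was -6.67 ± 0.40 in siLATS1, -7.91 ± 0.27 in siControl and -7.58 ± 0.10 in siLATS2 (SD, n = 3). It was higher in siLATS1 than in either other group in every sample, by 1.25 and 0.92 (exact permutation test, p = 0.10 each), and siLATS2 was above siControl by 0.33 (p = 0.10, exact test). The siControl values were -8.22 in replicate 1 and -7.78 and -7.73 in the others. Those of siLATS2 were -7.50, -7.69 and -7.56, so the size of the last difference leans on siControl replicate 1. The log2 ratio of ITGB5 to ITGAV, the more abundant pair, was -1.30 ± 0.51 in siLATS1 and -1.71 ± 1 in siControl (exact permutation test, p = 0.70). ITGA6 to ITGA3 was 5.70 ± 0.56 in siLATS1 and 6.31 ± 1.16 in siControl (exact permutation test, p = 0.60). ITGB4 to ITGB1 was -8.19 ± 0.87 and -8.27 ± 1.05 (exact permutation test, p = 1).

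Among the integrin subunits outside the 10 members, ITGB6 rose after siLATS1. Of 14 such subunits in the files, 4 were tested and 10 were below the filter. Of the 4, ITGB6 alone passed against siControl and against siLATS2, where 2.91% and 1.86% of all tested genes did. ITGB6, which like ITGB8 joins ITGAV in a receptor for latent TGF-beta, had 2.69 to 3.28 CPM in siLATS1, 1.17 to 2.06 in siControl and 0.717 to 1.31 in siLATS2. Its log2 fold change was 0.66 against siControl (adjusted p = 0.42 in limma) and 1.02 against siLATS2 (adjusted p = 0.21). The groups did not overlap in either, as for 8.48% and 12.4% of all tested genes. These are low levels, counted from 20 to 96 reads. With the GC correction the adjusted p of ITGB6 was 0.031 and 0.023 (limma). ITGA9 (0.47, adjusted p = 0.66 in limma), ITGAL (0.20) and ITGAE (-0.04) did not reach the threshold in siLATS1 against siControl. Without siControl replicate 1 they had 0.32, -0.18 and 0.05. ITGA9 met the filter only through siLATS1, with at most 0.775 CPM in siControl and 0.808 in siLATS2. ITGAL and ITGAE are known from leukocytes, where they pair with ITGB2 and ITGB7, and here ITGB7 had 0 reads and ITGB2 at most 1 read in any sample.

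Of the ligands, 4 of 26 tested genes rose after siLATS1 and 0 fell, where 2.91% of all tested genes passed in either direction, with a median log2 fold change of 0.14 (-0.05 without siControl replicate 1) beside 0.02 for all tested genes. NPNT, nephronectin, an RGD ligand of basement membranes, had 56.5 to 115 CPM in siLATS1 and 21.8 to 30.7 in siControl (log2 fold change 1.6, standard error 0.26, adjusted p = 0.096 in limma). TNC, tenascin-C, had 3.83 to 7.71 CPM against 0.395 to 1.73 (1.73, adjusted p = 0.19). FN1, fibronectin, the ligand of the ITGA5 receptor and abundant in these cells, had 5349 to 7124 CPM against 3851 to 4331 (0.60, adjusted p = 0.31). VTN, vitronectin, the ligand of the ITGB5 receptor and named here because it makes up the count, had a mean of 283 ± 148 CPM against 87.2 ± 62 (2.03, adjusted p = 0.70). With the GC correction, chosen after seeing the data, the adjusted p of NPNT, TNC and VTN was 0.017, 0.019 and 0.024 (limma). FN1, at 0.55, was under the fold of the threshold there. The adjusted threshold was passed by 1.39% of genes in that fit. Without siControl replicate 1, where 5.67% of all tested genes passed, the count was 3 higher and 1 lower, with THBS1, thrombospondin-1, at -0.68 and FN1, at 0.55, under the fold that the threshold asks for. In siLATS2 against siControl 0 of the 26 passed, where only 0.271% of all tested genes did. Between siLATS1 and siLATS2, 2 of the 26 passed as higher and 2 as lower in siLATS1, where 1.86% of all tested genes passed. NPNT and TNC were higher (1.49 and 1.43, adjusted p = 0.20 and 0.49 in limma). THBS1 and NID2, a basement membrane linker, were lower (-0.82 and -0.60, adjusted p = 0.38 and 0.49). With the GC correction the adjusted p of NPNT and TNC was 0.038 and 0.04. That of THBS1 was 0.11, and NID2, at -0.55, was under the fold of the threshold.

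Of the machinery that links integrins to the cytoskeleton, 1 of 30 tested adaptors and kinases passed in siLATS1 against siControl, a share near the 2.91% of all tested genes. This gene, CAV1, caveolin-1, a membrane scaffold that associates with integrins, rose, with 43 to 47.1 CPM against 23.4 to 31.5 (log2 fold change 0.70, standard error 0.18, adjusted p = 0.35 in limma). With the GC correction CAV1 had 0.81 (adjusted p = 0.026 in limma). The median of the list was 0.16, and -0.11 without siControl replicate 1, where ACTN4, alpha-actinin, also passed, as lower. FERMT1 (kindlin-1) had -0.33 (adjusted p = 0.78), PARVA (alpha-parvin) 0.33 (adjusted p = 0.89) and TGFB1I1 (Hic-5) 0.67 (adjusted p = 0.98 in limma), none past the threshold. Without siControl replicate 1 they had -0.25, 0.41 and 0.12. Of the 4 inhibitors of integrin activation (DOK1, SHARPIN, FLNA and ITGB1BP1) 0 passed in any comparison. FLNA, filamin A, had 277 to 761 CPM in siLATS1 and 53 to 855 in siControl, and SHARPIN 9.88 to 30.1 against 0.703 to 29.1, with siControl the wider range in both. Their log2 fold changes were 0.53 and 0.61, and -0.78 and -0.76 without siControl replicate 1. The median of the 4 inhibitors was 0.46, and -0.56 without that sample. Of the 10 tested hemidesmosome and tetraspanin partners 0 passed, with a median of 0.29 in siLATS1 against siControl that was -0.41 without siControl replicate 1. CD9 had 14.1 to 15.5 CPM against 12.2 to 12.5 (0.26). CD151, a partner of the laminin receptors, had 120 to 262 against 18.2 to 246 (0.81, and -0.40 without siControl replicate 1). SLC3A2 had -0.40 and CD47 -0.23, and the adjusted p of these 4 was 0.98 (limma). Without siControl replicate 1 SLC3A2, the heavy chain of an amino acid transporter that binds beta subunits, passed as lower, at -0.74. In siLATS2 against siControl 0 genes of these 3 lists passed, where only 0.271% of all tested genes did.

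Across the 9 samples the members followed 2 opposite courses around ITGB1. Pearson's r with ITGB1 on the log2 scale was 0.936 for ITGAV, 0.926 for ITGA1, 0.895 for ITGA6 and 0.614 for ITGA2, and -0.889 for ITGB5, -0.886 for ITGA3, -0.862 for ITGB4 and -0.799 for ITGA5. ITGB8 had 0.128. Without siControl replicate 1 the signs were the same, with 0.867 for ITGAV, 0.38 for ITGA2, -0.753 for ITGB5 and -0.414 for ITGA5 over 8 samples. The positive group is the one with low GC content and the negative group the one with high GC content. The 5 genes most like ITGB1 among all tested genes were ATXN10 (r = 0.997), FUNDC1 (0.995), DDX50 (0.995), DONSON (0.993) and HDAC2 (0.991). These correlations describe 9 samples that share siControl replicate 1 and the scaling.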

How the data were processed

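RNA-seq was measured in 9 Huh7 samples, 3 per siRNA. Per the methods, single-end reads with 1 genomic hit were kept by STAR on hg19 (GRCh37) and summed over RefSeq exons with QuasR, whose strand setting is not given in the sources used here, so antisense reads cannot be told apart. The authors deposited CPM, reads per gene relative to all counted reads of the sample. All values (100%) were whole multiples of 1 read within 0.01 read, which gave the reads and the depth of 23547579 to 32193229 reads per sample. Rows were named through RefSeq gene numbers (20474 of 20575 matched).

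CPM were scaled by TMM factors (edgeR 4.0.16), and log2(CPM + 1) of the 12901 genes reaching 1 CPM in 3 samples or more was fitted with limma 3.58.1, 1 mean per group over all 9 samples, with Benjamini-Hochberg adjustment. On the recovered reads, edgeR's quasi-likelihood test called 452 genes in siLATS1 against siControl (5 adjusted) and DESeq2 1.42.0 527 (166 adjusted). Levels were compared per kb of MANE Select exons (GENCODE on GRCh37). The script was tested on simulated data.

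The text names all 10 members, LATS1, up to 4 genes per list with the lowest p in siLATS1 against siControl (further genes complete a count), and the 5 genes most correlated with ITGB1. The members and lists were chosen with earlier results of these data known. Alternatives changed the scaling, pseudocount, filter, tool, replicate block and samples. A GC correction (loess, span 0.3, in R 4.3.3) was added after seeing the data.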

Additional observations from a re-analysis of the deposited data

How the results depend on the processing

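The rise of ITGB8 in siLATS1, against siControl and against siLATS2, kept its direction and its side of the unadjusted threshold in every alternative in which the gene was tested. A filter of 5 CPM in 3 samples removed it, leaving 1 member past the threshold in siLATS1 against siControl and 0 in siLATS1 against siLATS2. The fall of ITGA2 passed in all alternatives but the one without siLATS1 replicate 3. Leaving out each sample in turn gave 1 to 3 members past the threshold in siLATS1 against siControl, the third being ITGA5, which also passed with the replicate block (0.97). Of 639 alternative values of the 30 member fold changes 573 stayed on their side of 0 and of the threshold, and 60 changed sign, all of them in members that had not passed. Only 3 samples per group, 1 cell line and, for ITGA3, ITGB4 and ITGB8, few reads limit what could be detected. The cause of the changes below was not tested.

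In siLATS1 against siControl, leaving out each sample gave 221 to 730 genes past the unadjusted and 0 to 40 past the adjusted threshold, both highest without siControl replicate 1. The adjusted count was 13 and became 6 with the 5 CPM filter (243 unadjusted), 0 with the replicate block, 0 with the 6 samples compared alone, 5 with edgeR, 166 with DESeq2, 162 with the GC correction and 384 with that and without siControl replicate 1. In siLATS2 against siControl the unadjusted count was 35 and became 72 with a pseudocount of 0.1, 23 with the 5 CPM filter, 21 with 6 samples, 68 with edgeR, 70 with DESeq2, 61 with the GC correction and without siControl replicate 1, and 11 to 69 with each sample left out. In siLATS1 against siLATS2 it was 139 with the 5 CPM filter, and the adjusted count of 0 became 1 with a pseudocount of 0.5, 3 with no filter, 100 with DESeq2, 84 with the GC correction, 191 with that and without siControl replicate 1, and 0 to 19 with each sample left out.

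The replicate block gave 400, 46 and 256 genes at the unadjusted threshold in the 3 comparisons and changed no other call of a member. Replicate numbers recur across the groups in the labels. Deviations of same-numbered samples correlated between -0.874 and 0.92, and those of replicate 3 between 0.834 and 0.864. Not every sample correlated best with its own number. Whether same-numbered samples were prepared together cannot be told from these values.

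Without TMM factors the sign changed for ITGA1 (0.02) and ITGB1 (0.03) in siLATS1 against siControl, ITGA6 (0.01) in siLATS2 against siControl, and ITGA1 (0.03), ITGA3 (0.05) and ITGB1 (0.05) in siLATS1 against siLATS2. There ITGA3 was also 0.01 with median-of-ratios factors, 0.02 with edgeR and 0.04 with DESeq2, and ITGB1 0.0024 with DESeq2. In siLATS1 against siControl ITGB4 was -0.02 with edgeR. With the GC correction the sign changed for ITGA1 (0.07), ITGB1 (0.07) and ITGB4 (-0.32) in siLATS1 against siControl, for ITGA1 (0.13), ITGA6 (0.07), ITGAV (0.08), ITGB1 (0.11) and ITGB4 (-0.32) in siLATS2 against siControl, and for ITGA3 (0.10) and ITGB4 (0.0026) in siLATS1 against siLATS2. With siControl replicate 1 also left out it did so for ITGA1 (0.10) and ITGB1 (0.07) in siLATS1 against siControl, ITGA1 (0.17), ITGA6 (0.12), ITGAV (0.05) and ITGB1 (0.11) in siLATS2 against siControl, and ITGA3 (0.09) in siLATS1 against siLATS2.

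With each sample left out, values on both sides of 0 ran in siLATS1 against siControl from -0.39 to 0.23 for ITGA1, -0.04 to 0.62 for ITGA3, -0.43 to 0.01 for ITGA6, -0.31 to 0.25 for ITGB4, -0.45 to 0.06 for ITGAV, -0.10 to 0.37 for ITGB5 and -0.25 to 0.19 for ITGB1. In siLATS2 against siControl they ran from -0.36 to 0.27 for ITGA1, -0.04 to 0.61 for ITGA3, -0.23 to 0.22 for ITGA6, -0.21 to 0.27 for ITGB4, -0.38 to 0.15 for ITGAV, -0.00015 to 0.47 for ITGB5 and -0.24 to 0.21 for ITGB1. In siLATS1 against siLATS2 they ran from -0.19 to 0.10 for ITGA1, -0.21 to 0.16 for ITGA3, -0.25 to 0.12 for ITGB4, -0.21 to 0.12 for ITGAV and -0.10 to 0.14 for ITGB1. The log2 ratios, in the same order of comparisons, ran from -0.51 to 0.49, -0.43 to 0.57 and -0.57 to 0.22 for ITGB4 to ITGB1, from -1.02 to 0.05, -0.81 to 0.26 and -0.46 to 0.10 for ITGA6 to ITGA3, and from -0.16 to 0.78, -0.15 to 0.79 and -0.30 to 0.17 for ITGB5 to ITGAV.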
